A study of Homo sapiens with 2 samples.

Results

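Interactions that joined 2 genomic bins 2 to 3 Mb apart were examined in the TCF3::HLF-HiChIP of HAL-01 cells, and 1988 of 49245 listed interactions (4.04%, Wilson 95% interval 3.87 to 4.21) had this distance, measured from the start of one 5-kb bin to the start of the other. The cells were HAL-01, a human B cell precursor leukemia line with t(17;19), that carried Cas9 with GFP and had lost the wild-type TCF3 allele, so that the E2A antibody could pull down the fusion protein without wild-type TCF3. Both biological replicates belonged to this single condition, and the authors merged them before calling interactions. None of the values below therefore has a replicate error, no condition could be compared with another, and intervals cover counting error only. Copies of read pairs were not removed before the contacts were counted, so read pairs are not all independent molecules. The knockout state rests on the labels and the study's methods, and a HiChIP list does not show it.

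TCF3::HLF joins the activation domains of TCF3, a transcription factor of early B cells, to the DNA-binding leucine zipper of HLF, a factor of blood stem cells and of circadian gene control in liver. HLF and its relatives bind as dimers to a palindrome, TTACGTAA, and to its close variant TTATGTAA. In the HiChIP used here, fixed chromatin was cut and the fragments bound to the protein of interest were pulled down. Neighboring ends were then ligated, so that a read pair reports both the bound site and a place it lay close to. Most contacts between enhancers and promoters stay inside a topological domain, and contacts of several megabases usually cross domain borders.

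The sequences below are a selection of HLF motifs with their surroundings, from bins where several interactions of 2 to 3 Mb met and from bins with large contact counts. They were chosen to show both spellings of the motif, the repeat in PIK3C3 and pairs with a motif at each end, and the motifs of SNTG1 and RAB2A, among others, are not shown. They are the plus strand of hg38, written 5′ to 3′, with TTACGTAA, TTATGTAA or the reverse complement TTACATAA in capitals. By the GENCODE annotation, those named for a gene lie in an intron of it, and the others outside genes or in an intron of an unnamed noncoding gene.
ZEB2 (chr2:144372520-144372587): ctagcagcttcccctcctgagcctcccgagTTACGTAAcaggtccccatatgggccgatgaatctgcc
KCNH8 (chr3:19497465-19497532): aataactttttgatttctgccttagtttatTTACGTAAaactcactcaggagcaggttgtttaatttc
RABGAP1L (chr1:174942946-174943013): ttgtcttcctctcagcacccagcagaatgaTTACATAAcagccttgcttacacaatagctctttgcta
PDE3A (chr12:20402945-20403012): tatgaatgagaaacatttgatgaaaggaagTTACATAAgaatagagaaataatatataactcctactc
MYRIP (chr3:39946336-39946403): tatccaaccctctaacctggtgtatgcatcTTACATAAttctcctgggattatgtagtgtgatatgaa
PIK3C3 (chr18:42009593-42009773): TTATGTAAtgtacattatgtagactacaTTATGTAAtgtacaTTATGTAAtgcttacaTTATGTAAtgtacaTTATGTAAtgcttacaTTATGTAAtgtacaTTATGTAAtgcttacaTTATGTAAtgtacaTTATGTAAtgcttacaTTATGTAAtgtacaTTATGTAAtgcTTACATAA
FOXP2 (chr7:114403088-114403155): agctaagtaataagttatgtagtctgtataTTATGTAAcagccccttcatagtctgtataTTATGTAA
ST7 (chr7:117079259-117079326): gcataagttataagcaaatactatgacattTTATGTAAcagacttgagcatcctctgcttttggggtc
left bin of the chromosome 1 pair (chr1:60799135-60799202): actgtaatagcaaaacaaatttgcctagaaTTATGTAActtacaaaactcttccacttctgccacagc
right bin of the chromosome 1 pair (chr1:62908285-62908352): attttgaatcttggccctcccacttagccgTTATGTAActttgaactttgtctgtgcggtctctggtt
The PIK3C3 stretch is a short tandem repeat that holds 12 matches in 181 bases. The matches start 11 to 28 bases apart, with a median step of 14 bases. The other stretches hold 1 match each, except that of FOXP2, which holds 2.

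The interactions of 2 to 3 Mb were few, but each of them rested on about as many read pairs as a shorter one. Their median contact count (read pairs with 1 end in each bin) was 21 (95% interval 21 to 22), with quartiles of 16 and 28 and a range from 11 to 61. The median was 22 (21 to 22) among the 4785 interactions of 1 to 2 Mb and 24 (24 to 24) among the 42472 interactions of 50 kb to 1 Mb. The number of listed interactions fell from 10815 at 0.1 to 0.2 Mb to 285 at 2.0 to 2.1 Mb and 148 at 2.9 to 3.0 Mb, which is a 73.1-fold decrease over the whole range and a 1.93-fold decrease within the 2 to 3 Mb range. Over the same range the median contact count went from 25 to 20, a ratio of 1.25. Weak contacts are not in the list, and the background of FitHiChIP falls with distance. At a contact count of exactly 20, the median listed P value was 3.43e-06 at 0.1 to 0.2 Mb (521 interactions), 6.48e-08 at 2.0 to 2.1 Mb (12 interactions) and 3.33e-08 at 2.9 to 3.0 Mb (5 interactions), so the same count was listed with a smaller P value at the longer distance.

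The share of calls with a small q-value was slightly below that of the whole list. A q-value under 1e-05 was listed for 1279 of the 1988 interactions (64.3%, 62.2 to 66.4). Over all listed interactions it was 66.5%, just above that interval. The rule used no value besides the distance. Just inside the limit, 14 interactions lay at exactly 2000 kb, with contact counts from 14 to 40 and a median of 21, and just outside it 16 listed interactions lay at 1995 kb, with counts from 13 to 39 and a median of 21. Of those at 2000 kb, the one with the smallest P value joined chr6:137750001-137755000, in the noncoding genes LINC02539 and LINC03004, to chr6:139750001-139755000 in the noncoding gene FILNC1 with 40 read pairs. Of those at 1995 kb it joined CACNA1C, a calcium channel gene, on chromosome 12 to a bin without an annotated gene with 39 read pairs. At the upper end, 9 interactions had the longest distance listed, 3000 kb.

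Interactions of 2 to 3 Mb were isolated. FitHiChIP merges neighboring significant bin pairs into 1 listed interaction, and only 2 of the 1988 (0.101%, 0.0276 to 0.366) were such merged groups, beside 0.711% at 1 to 2 Mb and 8.83% at 50 kb to 1 Mb. One of them joined a bin in NBN, a DNA repair gene, on chromosome 8 to a bin 2755 kb away, with 24 read pairs in the listed bin pair and 37 in the group. The other joined a bin without an annotated gene to LPAR1, a lysophosphatidic acid receptor gene, on chromosome 9 over 2290 kb, with 21 read pairs in the bin pair and 39 in the group. Another listed interaction of the same bin with a partner within 25 kb was found for 24 members (1.21%, 0.813 to 1.79), beside 4.20% at 1 to 2 Mb and 27.7% at 50 kb to 1 Mb. Near-identical sequence in the 2 bins was not seen. The largest number of shared 31-base words was 152, and 0 of 1988 pairs shared 500 or more, with an upper limit of 0.193%.

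A typical interaction of 2 to 3 Mb ran from a bin with many interactions to a bin with none besides it. The bin with more listed interactions of any distance, called the more-used bin here, had a median of 7 (6 to 7), the same median as in both shorter classes. The less-used bin had a single interaction in 1747 of 1988 cases (87.9%, 86.4 to 89.2), beside 87.8% at 1 to 2 Mb and 82.6% at 50 kb to 1 Mb. In only 17 cases (0.855%, 0.535 to 1.37) did both bins have 5 or more interactions. In 32 cases (1.61%) both bins had 1. The more-used bin lay to the left in 972 of 1942 interactions (50.1%, 47.8 to 52.3), so neither direction along the chromosome was preferred beyond counting error. The authors used MACS2 peaks as the reference for the calls. The sources used here do not give the mode of FitHiChIP, which sets whether an interaction needs a peak in only 1 of its bins, and the part of that setting in the unequal use of the bins, or in the motif shares of more-used and less-used bins below, was not tested.

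A bin with 10 or more interactions was part of 626 members (31.5%, 29.5 to 33.6), and one with 20 or more was part of 163 (8.20%, 7.07 to 9.49). The median contact count was 20 (19 to 21) where the more-used bin had 1 to 4 interactions, 21 (20 to 22) with 5 to 9, 22 (21 to 23) with 10 to 19, and 23 (21 to 24) with 20 or more. Neighboring steps of this order have overlapping intervals. A q-value under 1e-05 was listed for 58.5% (54.1 to 62.8) of members in the first of these groups for 65.6% (62.3 to 68.6) with 5 to 9 interactions, for 68.7% (64.3 to 72.7) with 10 to 19 and for 63.2% (55.6 to 70.2) with 20 or more. The last interval overlaps all the others.

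HLF motifs lay on the more-used side. An exact TTACGTAA or TTATGTAA, on either strand, was found in 901 of 1641 more-used bins (54.9%, 52.5 to 57.3), beside 28.8% of the bins 25 kb to either side of them that were not anchors and 30.6% of all 5-kb bins of the genome. The less-used bins held one in 624 of 1940 cases (32.2%, 30.1 to 34.3), beside 30.7% (29.2 to 32.3) of their own flanking bins, and these intervals overlap. The palindrome TTACGTAA alone was in 6.52% (5.42 to 7.82) of more-used bins against 1.67% of their flanks. In less-used bins it was in 1.55% (1.09 to 2.20) against 2.02%. The share rose with the use of the bin, from 32.0% (29.9 to 34.2) of bins with 1 interaction through 38.7% (35.0 to 42.4) with 2 to 4 and 51.7% (48.2 to 55.3) with 5 to 9 to 72.4% (68.1 to 76.4) with 10 or more. A match is a description of the letters in the bin and does not show binding.

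The motif share of more-used bins was 51.6% (49.9 to 53.3) at 1 to 2 Mb and 47.5% (46.4 to 48.6) at 50 kb to 1 Mb. Many bins have interactions in more than 1 of these classes, so the 3 shares are not independent. Among bins with 10 or more interactions, the shares were 68.0% (64.6 to 71.3) at 1 to 2 Mb and 66.7% (63.9 to 69.4) at 50 kb to 1 Mb, with intervals that overlap that of the 2 to 3 Mb class. Among bins with 1 interaction, the share was 30.1% (28.7 to 31.5) at 1 to 2 Mb. At 50 kb to 1 Mb it was 28.1% (27.7 to 28.6), an interval below that of the 2 to 3 Mb class (29.9 to 34.2). The flanks of less-used bins differed in the same direction. They held a motif in 30.7% (29.2 to 32.3) at 2 to 3 Mb and 28.1% (27.8 to 28.5) at 50 kb to 1 Mb. Flanks of bins with 1 interaction were not counted on their own. Over the pairs of the 2 to 3 Mb class, 358 (18.0%) had a motif in both bins, 1038 (52.2%) in 1 bin and 592 (29.8%) in neither. The median contact counts were 22 (21 to 23), 21 (20 to 22) and 21 (21 to 22) respectively, so a motif in the bins did not go with a contact count that differed beyond these intervals.

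The interaction with the most read pairs among those of 2 to 3 Mb was also one of the longest. It joined chrX:41920001-41925000, with the start of CASK, a membrane scaffold gene, to chrX:44920001-44925000 in KDM6A, which encodes a demethylase of histone H3 lysine 27, with 61 read pairs (exact Poisson 95% interval 46.7 to 78.4) over 3000 kb and a listed P value of 8.32e-50. Neither bin held an HLF motif. A start, here and below, is that of any annotated transcript of a gene, so it may lie inside the gene. The interaction with the next largest count joined chr2:212840001-212845000 to chr2:215285001-215290000, both in noncoding genes without a name, with 59 read pairs (44.9 to 76.1). Then came the chromosome 1 pair shown above, chr1:60795001-60800000 with chr1:62905001-62910000, with 54 read pairs (40.6 to 70.5) and a motif in each bin. The 10 largest counts ran from 61 down to 44 (32.0 to 59.1), and since the first and the last interval overlap, their order is not resolved by these counts.

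Genes of transcription factors were among these 10. The start of RFX3, a factor for ciliated cells, on chromosome 9 had 51 read pairs (38.0 to 67.1) with a bin 2550 kb away that has no annotated gene. A bin in FOXP2, a forkhead factor, with 4 HLF motifs was joined to the start of ST7 with 1 motif, over 2675 kb with 48 read pairs (35.4 to 63.6) and a listed P value of 3.54e-32. SNTG1, which encodes a syntrophin, was joined to ST18, a zinc finger factor gene, with 49 read pairs (36.3 to 64.8). These 3 pairs have 1 busier bin each, with 9, 5 and 51 interactions, and a partner with a single one. The last 2 places among the 10 are part of a tie of 5 interactions with 44 read pairs, broken by the smaller P value. The remaining members of the 10 joined GAREM1, an adaptor gene of growth factor signaling, to a bin without a gene (46 read pairs), the start of KIAA0408 to a bin without a gene (46), 2 bins without genes on chromosome 13 (44), and TBC1D5, a regulator of endosomal traffic, to the potassium channel gene KCNH8 (44). The KCNH8 bin is the busier one of its pair, with 7 interactions, and holds the TTACGTAA shown above.

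The 10 smallest listed P values belonged to 6 of the same interactions and to 4 others. These were the pair of LINC02492 and a bin without a gene on chromosome 4 (42 read pairs, P value 1.42e-30), a pair of bins without genes on chromosome 13 (43, 4.84e-29), the start of SNAP91, a clathrin assembly gene of synapses, with a bin without a gene on chromosome 6 (43, 1.33e-28), and the start of the kinase gene STK40 with LINC01685 on chromosome 1 (43, 2.56e-28). The LINC02492 pair is a case in which neither bin had any other listed interaction. No HLF motif lay in its bins.

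The 1988 interactions used 3660 anchor bins, and 3402 of these took part in 1 of them. The most used was chr8:49980001-49985000 in SNTG1, with 51 listed interactions in all, of which 7 were 2 to 3 Mb long. All 7 partners lay on the same side, with contact counts of 22, 19, 16, 49, 20, 27 and 16 in order of distance, and 3 of them fell in ST18. Second was the RABGAP1L bin chr1:174940001-174945000, in a gene that regulates Rab GTPases, with 38 interactions. Its 5 long partners lay on both sides, in DNM3 (30 read pairs), SUCO (15) and a noncoding gene (25) to the left, and in ASTN1 (24) and at a noncoding start (24) to the right.

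The ZEB2 bin chr2:144370001-144375000, in a gene for a transcriptional repressor that acts in blood and neural development, had 34 interactions. Its 4 long ones all ran to the right, into a stretch with 1 protein-coding start, with 22, 20, 34 and 42 read pairs in order of distance. The count was thus not lower at the longer distances in this set, and the intervals of the lowest count (12.2 to 30.9) and the highest (30.3 to 56.8) just overlap. The bin in PDE3A, a phosphodiesterase gene, on chromosome 12 had 28 interactions and 2 HLF motifs. Of its 4 long partners, 1 lay to the left (33 read pairs) and 3 to the right (15, 19 and 29). The chromosome 18 bin chr18:73050001-73055000, without an annotated gene or a motif, had 27 interactions, with 19 read pairs to a bin in RTTN on the left and 28, 25 and 29 on the right.

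A further 4 bins, named after their values were seen because they tie at 4 members, differed in how busy they were. MYRIP had 23 interactions, the start of ATP6V0A1 had 16, the PIK3C3 bin with the motif repeat had 14, and a start of RAB2A, chr8:60515001-60520000, had 5. PIK3C3 encodes the lipid kinase of autophagy, and its 4 long contacts had 18 and 14 read pairs to the left and 18 and 36 to the right. At this bin of RAB2A, a gene of the secretory pathway, 4 of the 5 listed interactions were 2 to 3 Mb long. Of these, 3 ended in NKAIN3 with 12, 26 and 36 read pairs. ATP6V0A1, which encodes a proton pump subunit, was joined to IKZF3, a lymphoid zinc finger factor gene, with 16 read pairs (9.15 to 26.0), to TOP2A with 23, to a bin without a gene with 41, and to the start of EFTUD2 with 28.

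Few pairs of loci were joined more than once. When interactions whose bins both lay within 50 kb of those of another were counted together, the 1988 formed 1935 separate pairs of loci, of which 1889 held a single interaction and 46 held 2 or more, with 99 interactions in all. The pair with the most members lay around MYC, the growth-promoting transcription factor gene. Its left end, chr8:127160001-127210000, covers parts of the noncoding genes CASC19 and PCAT1 and ends 525 kb before the first MYC start. Its right end, chr8:129570001-129705000, covers part of CCDC26, the noncoding gene at the blood enhancer cluster, and begins 1831 kb after the last MYC start. These 6 interactions thus spanned MYC. Both ends lie less than 2 Mb from the MYC starts, so a contact of either end with the promoter could not be in this class. The paper reports contacts of the blood enhancer cluster with the MYC promoter in the same HiChIP.

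Their contact counts were 17, 27, 21, 17, 24 and 18, which add up to 124, and every interval overlaps every other, from the lowest (9.90 to 27.2) to the highest (17.8 to 39.3). The bin chr8:127180001-127185000, with 9 listed interactions, took part in 3 of them. On the right, the busiest bins were chr8:129580001-129585000 with 18 interactions and chr8:129665001-129670000 with 17, each joined to 1 bin at a CASC19 start, with 18 and 24 read pairs. An HLF motif lay in both bins of 4 of the 6 interactions. All 6 were single bin pairs, and no other listed interaction joined these 10 left and 27 right bins.

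**Figure D1:**
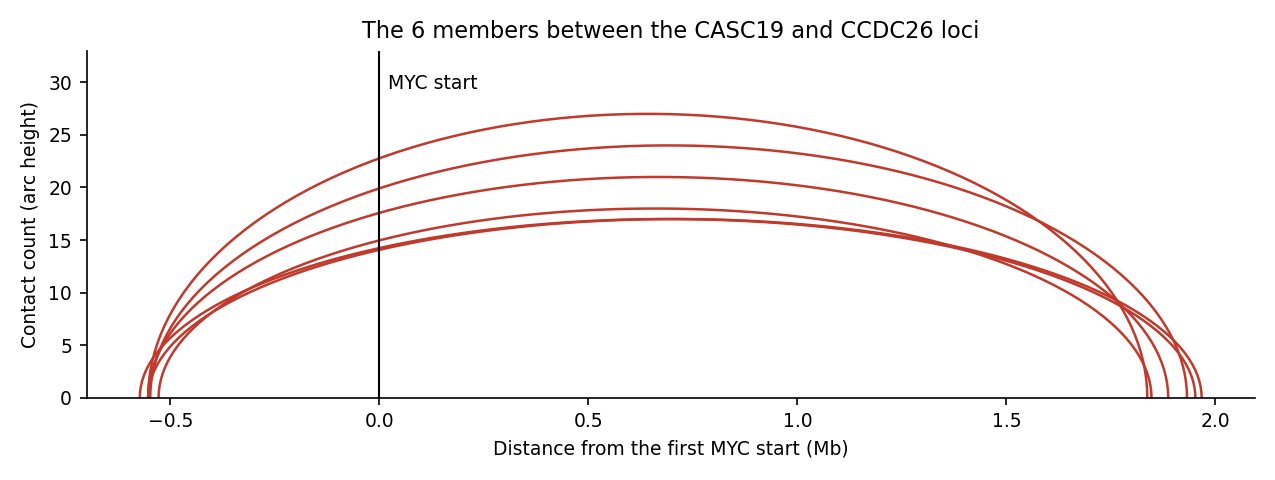
The 6 interactions between the CASC19 and CCDC26 loci drawn as arcs by distance from the first MYC start in Mb, with the height of an arc giving its contact count. The arcs of 17 to 27 read pairs start 525 kb or more before MYC and end over 1831 kb after it.

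Of the other loci pairs, the second was SNTG1 with ST18 (3 interactions, 84 read pairs). The third joined 2 stretches of a gene desert on chromosome 5, chr5:116610001-116650000 and chr5:118760001-118780000, with 21, 37 and 37 read pairs and 0 protein-coding starts between them. Its left end touches SEMA6A-AS2, an antisense gene of a semaphorin. The fourth ran from a gene-free stretch of chromosome 18 to ZNF407, a zinc finger gene, and its surroundings, with 31, 32 and 28 read pairs. The first 2 of these came from a bin with 65 listed interactions and the last from its neighbor with 27. Another 42 loci pairs held 2 interactions each, with summed counts from 26 to 67. The one of these with the smallest P value joined LIPA, the lysosomal acid lipase gene, to HECTD2, a ubiquitin ligase gene, on chromosome 10 with 14 and 34 read pairs, whose intervals (7.65 to 23.5 and 23.5 to 47.5) meet only at their ends.

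Gene starts were about as frequent at these anchors as at those of 1 to 2 Mb interactions. Less-used bins held one less often than at 50 kb to 1 Mb. A protein-coding start lay in at least 1 bin of 443 interactions (22.3%, 20.5 to 24.2), beside 22.2% at 1 to 2 Mb and 24.3% at 50 kb to 1 Mb. It was in 14.0% (12.4 to 15.7) of more-used bins against 12.0% of their flanks, and in 10.1% (8.84 to 11.5) of less-used bins against 9.68%. Any overlap with a protein-coding gene was seen for 60.3% (57.9 to 62.7) of more-used and 53.4% (51.1 to 55.6) of less-used bins. The median contact count was 21 without a coding start, 21 with a start in 1 bin and 21.5 with starts in both. Starts of all transcripts were counted, so a start inside a gene was not told apart from one at its main promoter.

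Protein-coding starts in both bins were found in 34 interactions (1.71%, 1.23 to 2.38). The share was 1.63% (1.31 to 2.03) at 1 to 2 Mb and 2.61% (2.46 to 2.77) at 50 kb to 1 Mb. Only the latter interval does not overlap that of the 2 to 3 Mb class. Among the 34, the smallest P value belonged to ATP6V0C, a proton pump subunit gene, and UBN1, which encodes a histone chaperone subunit. They had 38 read pairs (26.9 to 52.2) over 2345 kb of chromosome 16. A total of 74 protein-coding genes start between them. ABCA13, a transporter gene, and GRB10, an adaptor gene of insulin signaling, had 31 (21.1 to 44.0), and PI4KB, a lipid kinase gene, and PGLYRP4, a gene of innate immunity, had 30 (20.2 to 42.8). CSMD2 and CSF3R, the gene of the receptor for granulocyte colony-stimulating factor, had 27 (17.8 to 39.3). These 4 counts have intervals that overlap each other. They exceed the median of the class, but the pairs were picked by small P value, which favors large counts. Over all 34 pairs the median was 21.5 (15 to 24).

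Next came CDK6, a cell cycle kinase gene, with PON3 (29 read pairs over 2635 kb). This CDK6 start bin had 15 listed interactions and a further long contact with the start of CLDN12 on its other side, with 14 read pairs. Another, with 20 read pairs, ran to a bin without a coding start on the same side as PON3. The others of the 10 smallest P values joined ZNF611 to FIZ1 and ZNF524 (25), LMF1 to NLRC3 (25), the kinase gene CSNK1E to RANGAP1, a gene of nuclear transport (24), CHP1 to MAP1A (25) and ATP6V0A1 to EFTUD2, a spliceosome gene (28). The LMF1 and NLRC3 bins had no other listed interaction, while the UBN1, GRB10, RANGAP1 and ATP6V0A1 bins had 10, 14, 11 and 16. Among the rest, picked after its value was seen, was the start of XBP1, a plasma cell factor gene, with HPS4 and SRRD (20 read pairs, 12.2 to 30.9).

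Of the 7 gene lists examined, all but the olfactory receptors and the antigen receptor segments had a share of starts at these anchors whose interval held that of all protein-coding genes. A start in an anchor bin of a 2 to 3 Mb interaction was found for 453 of 19962 protein-coding genes (2.27%, 2.07 to 2.49). Of 51 hematopoietic transcription factor genes, 2 had one (3.92%, 1.08 to 13.2). These were MEF2C, a factor of B cell and myeloid development, on chromosome 5 (16 read pairs, 9.15 to 26.0, to a bin 2520 kb away without an annotated gene) and SOX4, a factor of early B cells, on chromosome 6 (15 read pairs, 8.40 to 24.7, to DCDC2). Both starts were busy bins, with 16 and 12 interactions, and both contacts had counts below the median of the class. Where these starts lie relative to the main promoters was not examined. An HLF motif lay in the MEF2C bin, and both bins of the SOX4 pair held 2.

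Of 171 developmental transcription factor genes 2 were found, SOX4 again and FOXO3, a forkhead factor of stress response, which was joined to ATG5, an autophagy gene (19 read pairs). Of 140 neuronal adhesion genes 3 were found. PCDHA2, at the clustered protocadherins, was joined to NR3C1, the glucocorticoid receptor gene, over 2540 kb with 35 read pairs (24.4 to 48.7) and a listed P value of 2.55e-17. The guidance gene SLIT2 had partners on both sides with 25 read pairs, in NCAPG, and 17. The cadherin gene CDH20 had 12. Zinc finger genes, with 10 of 508 (1.97%, 1.07 to 3.59), lay near the share of all coding genes, and their smallest P values were those of ZNF611 with ZNF524, of ZNF407, of ZNF230 with 24 read pairs and of ZNF703 with 20. Olfactory receptors had 1 of 415 (OR4N2, 18 read pairs), antigen receptor segments 1 of 411 (IGLV3-19 to SGSM1, 21 read pairs) and replication-dependent histone genes 0 of 69, which leaves an upper limit of 5.27%. The olfactory (0.241%, 0.0425 to 1.35) and antigen receptor (0.243%, 0.0430 to 1.37) shares lay below that of all coding genes. In the whole list, the shares of both families with a start in an anchor bin of any distance were likewise lower, at 6.99% and 4.14% beside 26.7% of all coding genes. Those of developmental factors (15.8%), neuronal adhesion genes (18.6%), zinc finger genes (17.3%) and histone genes (5.80%) were lower too. That of hematopoietic factors was higher, at 41.2%. Antigen receptor segments are annotated apart from protein-coding genes. A gene counted if any of its transcripts started in an anchor bin, and the number of transcripts per gene was not matched between the lists.

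The genome between the bins was rarely empty. A median of 12 protein-coding genes (11 to 12) and at most 116 started between the 2 bins of a long interaction, and 32 interactions (1.61%, 1.14 to 2.26) spanned 0. The share that spanned 0 was 5.96% at 1 to 2 Mb and 37.2% at 50 kb to 1 Mb. A longer distance leaves room for more genes, and unlisted windows of the same length were not counted, so these shares describe the distance. CTCF, which holds many chromatin loops at sites that point toward each other, was looked for through its core motif AGGKGGCRS, searched on both strands as 8 exact words of 9 letters. A core match lay in 24.3% (22.9 to 25.7) of anchor bins, 24.2% of their flanks and 22.6% of all 5-kb bins. Among 105 interactions with matches of a single orientation in each bin, 29 pairs pointed toward each other (27.6%, 20 to 36.8), 25 away from each other and 51 the same way.

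The interactions of 2 to 3 Mb lay on all 23 chromosomes of the list. Chromosome 20 had the most per Mb of length (1.06, with 68 interactions), followed by chromosomes 10 (0.949, 127 interactions), 13 (0.874, 100) and 17 (0.865, 72). The fewest per Mb were on chromosomes 21 (0.278, 13 interactions) and X (0.340, 53). Over all listed interactions, chromosome 20 also had the most per Mb (24.0), with 22.8 on chromosome 17, 21.3 on chromosome 10 and the fewest on X (7.15). As a share of the interactions of the same chromosome, the range was from 1.85% (1.08 to 3.14) on chromosome 21 to 5.53% (4.34 to 7.01) on chromosome 18. The intervals of chromosome 21 on the low side and of chromosomes 13 (5.06%, 4.17 to 6.11) and 18 on the high side left out the share over the whole list, 4.04%.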

How the data were processed

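The authors trimmed the reads with Trim Galore 0.6.6, merged both biological replicates, aligned to hg38 with BWA-MEM, extracted pairs with pairtools without the dedup step, used MACS2 peaks as the reference set, and ran FitHiChIP on 5-kb bins 50 kb to 3 Mb apart at a q-value under 0.01, merging nearby contacts. The FitHiChIP version is not given in the sources used here. The deposited contact counts are raw counts of read pairs per bin pair, or sums of such counts where bin pairs were merged. The listed p-value and q-value, deposited by the authors, come from the FitHiChIP background. A deposited fraction, the part of a merged group that was significant, entered no result. Reads, peaks and contact matrices were not analysed here, and the depth per replicate is unknown. The 1988 members hold 44625 read pairs.

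Interactions were selected by distance. With 1 merged library there was no test. Shares have Wilson 95% intervals, medians intervals from binomial order statistics and single counts exact Poisson intervals. Anchor use was counted over all listed interactions, and ties were broken by the smaller P value, for anchors by the number of listed interactions. Flanking bins lay 25 kb away and were no anchors. Motifs were exact words in the reference. Genes came from GENCODE release 44 on hg38, and 0 bins passed a chromosome end. A start was that of any transcript of a gene. The genes named are at the bins of the 10 largest counts, the 10 smallest P values, the 5 most used anchors, the 5 largest loci pairs and the 10 strongest pairs of coding starts, and list genes (up to 5 a list). Partners of the most used anchors were named after their values were seen. The members and lists were chosen with earlier results of these data known. Alternatives were a stricter q-value, other count, distance, window and motif settings, and chromosomes other than 17 and 19.

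The functions were tested on simulated data: 200 of 200 planted motifs, 50 of 50 planted copies and 100 of 100 planted loci pairs were recovered. The scripts ran in Python 3.11.15 with matplotlib 3.10.9, scipy 1.17.1, pandas 2.3.3 and numpy 2.4.6, and the genome was read with samtools 1.23.1 and pyfaidx 0.9.0.4.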

Additional observations from a re-analysis of the deposited data

How the results depend on the processing

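No paired analysis was possible because there was 1 condition and the replicates were merged before calling, so that leaving out a replicate was not possible either. Of 37 alternatives, 19 kept the value within its 95% interval (counts within 1.5 times, or the same chromosome) and 18 moved it. With a q-value under 1e-05, the number of interactions was 1279, the median contact count 26, the share with an anchor of 10 or more interactions 17.9% (with the use of a bin recounted among such interactions), the number of loci pairs 1253 and the number of list genes 10 in place of 18; fewer interactions enter these values by construction. With the use of a bin counted over the whole list, an alternative chosen after seeing the data, that share was 32.9%. A contact count of at least 20 left 1159 interactions, of which 99.5% had a q-value under 1e-05. A lower distance of 2.5 Mb left 842 interactions with a median contact count of 20, and 61.2% had a q-value under 1e-05. Anchors with 20 or more interactions were part of 8.20%. A coding start within 10 kb of the bin was found for 55.4% of interactions and 74 list genes, and starts of all annotated genes for 34.1%. The share of anchor bins with an HLF motif was 3.74% for TTACGTAA alone (flanks 1.90%), 38.1% without anchors of 10 or more interactions (flanks 30.0%) and 71.3% with the neighboring bins included (flanks 64.1%), so it exceeded the share of the flanks in each of these settings. With 2 of the CTCF words alone, 1.99% of anchor bins had a match (flanks 2.05%). Chromosome 20 kept the most interactions per Mb in both alternatives. Depth limits the ranking of single interactions: the largest contact count, 61, and the tenth, 44, have overlapping intervals.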
